A study of Mus musculus with 7 samples.

Results

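The set described here holds 10 genes of oxygen sensing and glucose breakdown in follicular dendritic cells (FDCs), which hold antigen on their surface for the B cells of lymphoid follicles. It was drawn up by gene symbol, as hypoxia-inducible factors (HIFs) with their glycolytic and angiogenic targets, and all 10 symbols were found among the 21176 genes of the deposited table. Wild type was compared with Ngfr KO, with 4 wild-type (WT) samples and 3 samples of the latter genotype, that is, a knockout of the gene for the neurotrophin receptor p75. All mice were male, 8 to 12 weeks old and not immunized, and each sample pooled popliteal lymph nodes of several animals before FDCs were sorted by flow cytometry. The labels give neither the Ngfr allele, and so not the tissues it affects, nor the markers of the sorting gate.

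Cells sense oxygen through HIF proteins: prolyl hydroxylases mark the alpha subunits for degradation while oxygen is at hand, and when it runs short the subunits accumulate, pair with ARNT and bind short DNA elements near their targets. Control therefore acts largely on the protein, which RNA levels do not show. Hif1a is expressed widely and is best known for driving glycolytic enzymes, whereas Epas1, which encodes HIF-2 alpha, is prominent in endothelium. The glycolytic genes of the set cover glucose phosphorylation (Hk1, Hk2), the making of the allosteric activator of phosphofructokinase (Pfkfb3), later steps of the pathway (Pgk1, Eno1) and lactate formation (Ldha), while Bnip3 serves mitophagy and Vegfa encodes the main growth factor of blood vessels.

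Values are the authors' signal after trimmed-mean-of-M-values (TMM) scaling, in which 1 unit stands for 230 to 295 reads. Libraries held 17244925 to 21538400 reads, and each Ngfr KO library (at least 20741770) was deeper than each WT library (at most 18873542), so depth and genotype cannot be told apart. Ngfr itself had signals of 0.377, 0.677, 1.30 and 1.14 in WT replicates 1 to 4 and 0.305, 0.353 and 0.184 in Ngfr KO replicates 1 to 3. The groups did not overlap, with an edgeR log2 change of -1.55 (adjusted p = 0.0574), and 46 reads or more remained in each Ngfr KO sample. Of 14 listed FDC markers, 13 were called higher in Ngfr KO, and of 14 listed endothelial markers 13 were called lower (4 of them passed the filter on low signal through WT alone), none of either list being at 0 in all samples. The summed signal of the FDC markers was 1840 to 5156 in WT against 8029 to 10542 in Ngfr KO. That of the endothelial markers was 129 to 156 and 32.4 to 57.4. In such bulk samples, fewer cells of a type and less RNA per cell cannot be told apart.

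Of the 10 genes, 9 had a signal of at least 1 in at least 3 samples and were tested with limma on log2(signal + 1), and each of them reached 1 in all 7 samples. Pgk1, Eno1, Ldha and Bnip3 were called higher in Ngfr KO, at a Benjamini-Hochberg adjusted p under 0.05, and Epas1 and Vegfa were called lower. Among all 8326 genes tested, 18.3% were called higher and 15.8% lower. The median log2 change was 0.52 over the 9 genes and 0.02 over all genes tested. A count model on whole reads recovered from the signal (edgeR) called Pgk1, Eno1 and Ldha higher and Epas1 and Vegfa lower, against 8.67% and 6.55% of its 16751 genes. Every Ngfr KO sample lay above every WT sample for Pgk1, Eno1, Ldha and Bnip3, a pattern seen in 22.6% of genes tested. For Epas1 and Vegfa all Ngfr KO signals were under all WT signals, as they were for 18.3% of genes tested.

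**Figure D1:**
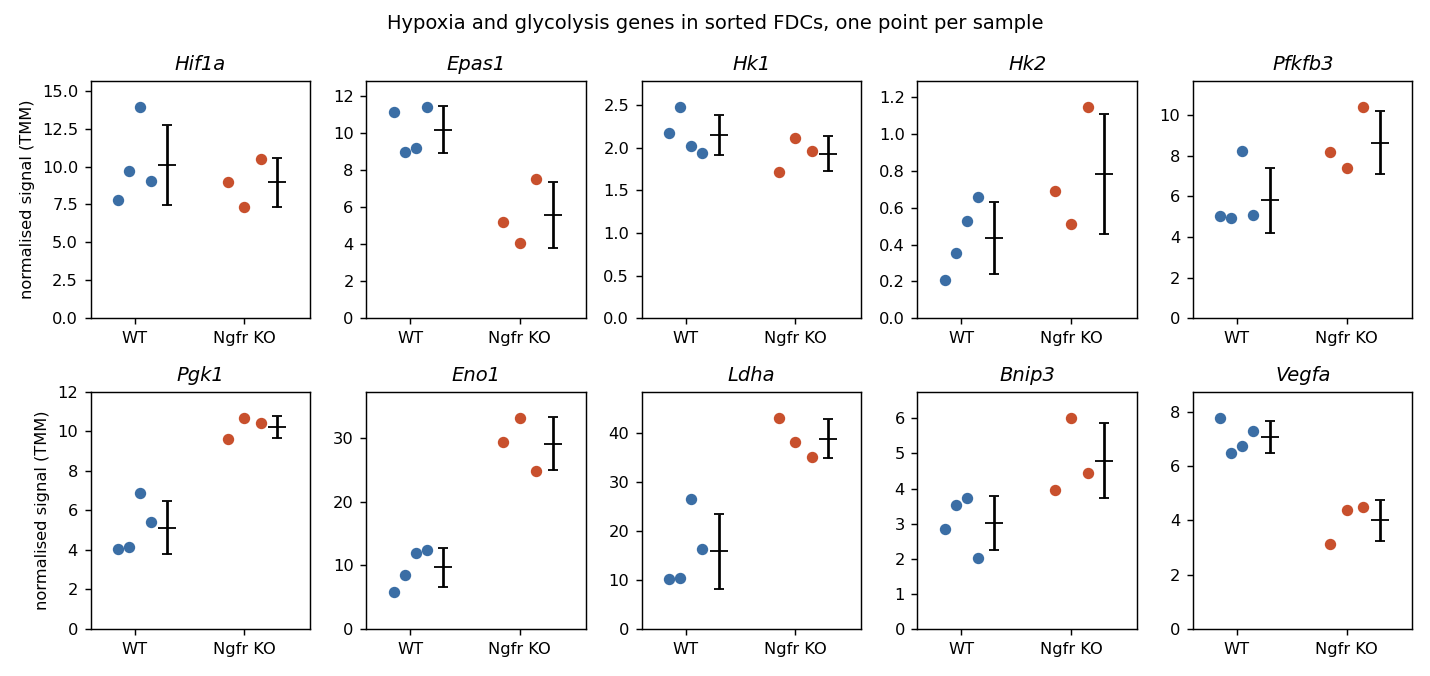
Normalised signal (TMM units, vertical axes from 0) of each of the 10 genes in the 4 WT samples (blue) and the 3 Ngfr KO samples (orange); black bars give the mean and SD. Pgk1, Eno1, Ldha and Bnip3 lie higher in each Ngfr KO sample than in any WT sample, Epas1 and Vegfa lie lower, and the other genes overlap.

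Because HIFs act through DNA elements, the start regions of the 3 enzymes called higher by both tools and of Vegfa are shown, each running from 250 bases before to 50 after a RefSeq transcript start (GRCm38.p6). Capitals mark the core letters of hypoxia response elements, ACGTG and GCGTG, found on either strand (as CACGT and CACGC on the other). A palindromic CACGTG holds ACGTG on both strands and counts as 2 matches. Of the set, 9 genes are in the RefSeq table, with 15 windows in all. Where a gene has several starts, 1 window is printed.

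Pgk1, chrX:106186850-106187149, plus strand: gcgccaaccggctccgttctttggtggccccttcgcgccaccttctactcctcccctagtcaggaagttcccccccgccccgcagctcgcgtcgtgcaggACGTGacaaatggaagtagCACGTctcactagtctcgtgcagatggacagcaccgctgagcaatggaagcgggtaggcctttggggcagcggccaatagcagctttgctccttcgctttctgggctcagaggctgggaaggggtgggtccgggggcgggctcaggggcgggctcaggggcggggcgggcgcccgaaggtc
Ldha, chr7:46845554-46845853, plus strand: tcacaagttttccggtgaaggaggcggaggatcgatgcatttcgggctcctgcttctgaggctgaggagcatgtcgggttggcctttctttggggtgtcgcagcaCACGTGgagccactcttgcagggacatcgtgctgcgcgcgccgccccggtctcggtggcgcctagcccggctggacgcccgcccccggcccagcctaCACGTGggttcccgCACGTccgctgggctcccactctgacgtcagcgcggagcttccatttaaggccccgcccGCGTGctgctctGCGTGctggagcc
Eno1, chr4:150236947-150237246, plus strand: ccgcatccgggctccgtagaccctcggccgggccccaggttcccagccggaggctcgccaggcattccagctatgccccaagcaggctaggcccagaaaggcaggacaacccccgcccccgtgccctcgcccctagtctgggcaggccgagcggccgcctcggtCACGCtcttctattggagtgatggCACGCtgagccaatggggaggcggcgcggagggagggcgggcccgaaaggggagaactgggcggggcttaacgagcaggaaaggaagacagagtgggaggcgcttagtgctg
Vegfa, chr17:46032328-46032627, minus strand: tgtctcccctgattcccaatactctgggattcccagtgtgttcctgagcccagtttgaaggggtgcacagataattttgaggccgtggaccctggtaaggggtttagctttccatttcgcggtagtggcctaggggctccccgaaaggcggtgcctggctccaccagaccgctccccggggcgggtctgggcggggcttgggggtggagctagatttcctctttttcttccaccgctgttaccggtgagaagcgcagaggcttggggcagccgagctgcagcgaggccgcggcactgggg

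The printed Ldha window held 5 matches to ACGTG and 2 to GCGTG, that of Pgk1 held 2 and 0, and that of Eno1 held 0 and 2. No match to either core lies in the printed Vegfa window, which says only that these letters are not in these 300 bases. The other Vegfa window, not printed, held 1 match to ACGTG and 1 to GCGTG, and the other Ldha window held 0 and 2. These counts thus depend on the window printed. A core was found in 13 of the 15 windows of the set, with at least 1 such window for each of the 9 genes, Vegfa and the uncalled Hif1a and Hk1 included. It was also found in 43.8% of all 32851 windows and in 62.7% of the windows of genes tested. A match describes the letters and is no evidence of binding.

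Of the 2 HIF factors, Epas1 was called lower in Ngfr KO and Hif1a was not called. Hif1a (chromosome 12, 73901375 to 73947530, plus strand, GRCm38) had signals of 7.77, 9.70, 13.9 and 9.03 in WT replicates 1 to 4 and 8.99, 7.35 and 10.5 in Ngfr KO replicates 1 to 3. The groups overlapped, WT replicate 3 standing highest, and the limma log2 change of -0.14 (SE 0.20, adjusted p = 0.605) was smaller than its error. Without WT replicate 3 it was 0.01. Epas1 (chromosome 17, 86753700 to 86833410, plus strand) had signals of 11.1, 8.98, 9.17 and 11.4 in WT and 5.18, 4.03 and 7.48 in Ngfr KO. It fell 1.83-fold, from 10.2 ± 1.3 (SD, n = 4) to 5.56 ± 1.76 (SD, n = 3), a limma log2 change of -0.79 (SE 0.19, adjusted p = 0.00946). Leaving out Ngfr KO replicate 2, the lowest sample, gave -0.62 with a limma adjusted p of 0.0507.

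Whether Epas1 fell relative to Hif1a was examined within each sample, where scaling cancels. The ratio of Epas1 to Hif1a signal was 1.43, 0.926, 0.659 and 1.26 in WT and 0.576, 0.549 and 0.711 in Ngfr KO, so WT replicate 3 lay inside the Ngfr KO range. The mean log2 ratio differed by -0.75 between genotypes (exact two-sided permutation test over 35 arrangements, p = 0.0857, adjusted p = 0.171 over the 2 ratios examined), and the smallest p this design allows is 0.0286. A change in the balance of the 2 factors was thus not shown.

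Partners and regulators of the HIF proteins were summarised from a list of 14 genes, of which 10 were tested, 1 was called higher and 2 lower, beside 18.3% and 15.8% of all genes tested. At an unadjusted limma p under 0.05, a looser cut, 1 was higher and 5 lower. The share of all genes tested that pass this cut was not counted, here or for the lists below. Counts at it therefore show no excess over other genes. The count of lower calls was 1 without WT replicate 1 or 2 or Ngfr KO replicate 1 or 2, and 5 without Ngfr KO replicate 3. Crebbp, which encodes a histone acetyltransferase that HIFs recruit, fell from 7.34 ± 0.84 (SD, n = 4) to 3.89 ± 0.14 (SD, n = 3), a log2 change of -0.77 (limma adjusted p = 0.00315). Its relative Ep300 fell by 0.57 on the log2 scale (limma adjusted p = 0.0258) but was not called by edgeR (adjusted p = 0.0553), nor without WT replicate 1 or 2 or Ngfr KO replicate 1 or 2 (limma adjusted p = 0.0667 to 0.110). With the length and GC trend removed, its log2 change was -0.29 (limma adjusted p = 0.145). Cul2, a scaffold of the ligase that degrades hydroxylated HIF subunits, rose from 1.89 ± 0.28 to 3.39 ± 0.40 (limma adjusted p = 0.00944). Signals of Arnt, the common partner, were 1.37 to 1.75 in WT against 0.789 to 1.12 in Ngfr KO, with a log2 change of -0.38 (limma adjusted p = 0.0556). The hydroxylase genes Egln1 and Egln2 had log2 changes of -0.42 and -0.46 (limma adjusted p = 0.0718 and 0.0628), and neither was called; Egln2 passed the filter through WT alone. Egln1 was called lower without WT replicate 4 (-0.53), without Ngfr KO replicate 3 (-0.55), with a replicate block (-0.53), with array weights (-0.54) and with the length and GC trend removed (-0.57; limma adjusted p = 0.00148 to 0.0396). Egln2 was called lower with array weights and with that trend removed (limma adjusted p = 0.0431 and 0.0214).

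Glucose is trapped in cells by hexokinases. Hk1 (chromosome 10, 62268855 to 62379908, minus strand), the widespread isoform, had signals of 2.17, 2.47, 2.02 and 1.94 in WT and 1.71, 2.12 and 1.96 in Ngfr KO. The groups overlapped, and the limma log2 change was -0.10 (SE 0.14, adjusted p = 0.585). Hk2 (chromosome 6, 82725025 to 82774454, minus strand), the inducible isoform, was at the low end of what was measured: 0.210, 0.352, 0.526 and 0.656 in WT and 0.689, 0.512 and 1.15 in Ngfr KO, from 54 to 286 reads per sample. It did not pass the filter. edgeR gave a log2 change of 0.89 (adjusted p = 0.205), with Ngfr KO replicate 2 inside the WT range.

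The Hk2 to Hk1 signal ratio was 0.0968, 0.142, 0.261 and 0.339 in WT and 0.403, 0.242 and 0.585 in Ngfr KO. It overlapped between genotypes, with a difference of 1.04 in mean log2 ratio (exact two-sided permutation test, p = 0.171, adjusted p = 0.171). Per kilobase of merged exon, Hk1 stood at 0.252 ± 0.028 (SD, n = 4) in WT against 0.226 ± 0.024 (SD, n = 3) in Ngfr KO, and Hk2 at 0.0730 ± 0.0327 and 0.131 ± 0.055, so Hk1 was the more abundant hexokinase in both genotypes.

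Pfkfb3 (chromosome 2, 11471433 to 11554077, minus strand) makes fructose 2,6-bisphosphate, which switches phosphofructokinase on. Its signals were 5.02, 4.95, 8.21 and 5.08 in WT and 8.17, 7.40 and 10.4 in Ngfr KO. WT replicate 3 alone among the WT samples reached the Ngfr KO range. The limma log2 change was 0.52 (SE 0.20, adjusted p = 0.0587) and missed the threshold, while without WT replicate 3 it was 0.67 (limma adjusted p = 0.0122).

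Pgk1, Eno1 and Ldha rose in Ngfr KO. Pgk1 (chromosome X, 106187100 to 106203699, plus strand) encodes phosphoglycerate kinase, an ATP-forming step. Its signals of 4.05, 4.15, 6.89 and 5.43 in WT stood against 9.60, 10.7 and 10.4 in Ngfr KO. The rise was 1.99-fold, with a limma log2 change of 0.90 (SE 0.18, adjusted p = 0.00383). The 3 Ngfr KO samples lay close together, and the highest WT sample was replicate 3.

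Eno1 (chromosome 4, 150236721 to 150248879, plus strand), the enolase of most tissues, had the largest change of the set. Signals were 5.84, 8.40, 12.0 and 12.4 in WT and 29.4, 33.1 and 24.8 in Ngfr KO, leaving a gap between 12.4 and 24.8 that no sample filled. The rise was 3.02-fold, from 9.65 ± 3.11 (SD, n = 4) to 29.1 ± 4.2 (SD, n = 3), with a limma log2 change of 1.54 (SE 0.24, adjusted p = 0.00096).

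Ldha (chromosome 7, 46841475 to 46855627, plus strand) encodes the lactate dehydrogenase subunit that favours lactate formation. Signals were 10.1, 10.4, 26.5 and 16.3 in WT and 43.0, 38.2 and 35.1 in Ngfr KO. WT samples spread more widely than Ngfr KO samples, with replicate 3 again the highest. The rise was 2.45-fold, with a limma log2 change of 1.34 (SE 0.29, adjusted p = 0.00461). Among WT samples, replicate 1 was lowest for Pgk1, Eno1 and Ldha and also had the lowest summed FDC signal (1840). Other samples did not follow that order: Ngfr KO replicate 3 had the highest FDC sum (10542) but the lowest Eno1 and Ldha of its group, and WT replicate 4 had the highest WT sum (5156) but less Pgk1 and Ldha than WT replicate 3. Cxcl13, the listed FDC marker that was not called, made up 5277 of the sum in Ngfr KO replicate 3 and 2905 in WT replicate 4. Without Cxcl13, the sum would be lowest, by a small margin, in Ngfr KO replicate 3 within its group. Among WT samples it would be highest in replicate 3. Both exceptions above thus rest on Cxcl13, whose groups overlapped. The part of the FDC markers in these rises was not tested.

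**Figure D2:**
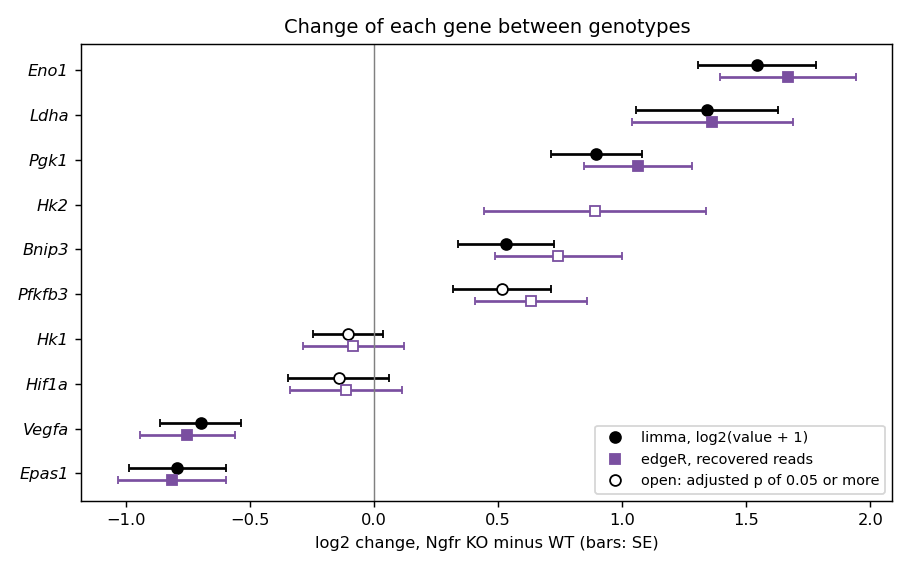
Log2 change of each gene, Ngfr KO minus WT, from limma on log2(signal + 1) (circles, bars SE) and from edgeR on recovered reads (squares). The edgeR bars are the absolute log2 change over the square root of its F statistic, a value derived from the test. Open symbols mark an adjusted p of 0.05 or more. Eno1 (1.54 by limma) and Epas1 (-0.79) are the ends of the range, Bnip3 is called by limma and not by edgeR, and Hk2 was fitted by edgeR alone.

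Copies of these genes elsewhere in the genome make their counts less certain. In GENCODE M21 transcripts, other genes match at 95% identity or more over at least 200 bases: 4 for Pgk1, 3 for Eno1, 4 for Ldha and 4 for Bnip3. They include Eno1b (99.5% identical over 1736 bases) and Pgk1-rs7 (100% over 1255 bases), and were not analysed here. How reads that fit several places were counted is not given in the sources used here. No such copy was found for Hif1a, Epas1, Hk1, Hk2, Pfkfb3 or Vegfa. Annotated exons of other genes overlap those of Hif1a, Hk1 and Bnip3. The longest overlap is 504 bases of Bnip3 with the antisense gene Gm45507, whose signal was at most 0.0153 in WT and 0.0611 to 0.220 in Ngfr KO. The antisense Hk1os shares 157 bases with Hk1, with a signal of 0.163 to 0.732.

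The rest of the glycolytic pathway was taken from a list of 27 genes for glucose uptake, glycolysis and lactate handling. Of its 24 genes in the table, 12 were tested, each with a signal of at least 1 in both genotypes, 7 were called higher in Ngfr KO and 0 lower by limma, and edgeR called 7 and 0 of the 22 it tested. Over all genes tested, the shares called higher and lower were 18.3% and 15.8% by limma and 8.67% and 6.55% by edgeR. At an unadjusted limma p under 0.05, 9 of the 12 were higher and 0 lower, the share of all genes at that cut not being counted. The median log2 change was 0.68, against 0.02 over all genes tested. Gapdh, the dehydrogenase often used as a reference gene, rose 2.30-fold from 45.4 ± 9.4 (SD, n = 4) to 104 ± 7 (SD, n = 3) (log2 change 1.20, limma adjusted p = 0.00194). Tpi1, triose phosphate isomerase, rose 2.49-fold (log2 change 1.27, limma adjusted p = 0.00279). Ldhb, the other widespread lactate dehydrogenase subunit, rose 2.64-fold from a low 1.58 ± 0.40 (log2 change 1.01, limma adjusted p = 0.00162). Aldoa, aldolase A, rose 1.91-fold (log2 change 0.92, limma adjusted p = 0.00569), and the remaining 3 called genes were Pkm, Pgam1 and the glucose transporter gene Slc2a1.

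In pathway order, the 9 tested genes from aldolase to lactate dehydrogenase were called higher, set members included, with log2 changes of 0.81 (Pgam1) to 1.54 (Eno1). Of the 5 tested genes from hexokinase to phosphofructokinase and its activator, 0 were called. Their log2 changes were -0.10 for Hk1, 0.36 for Gpi1, 0.52 for Pfkl, 0.43 for Pfkp and 0.52 for Pfkfb3. Among all genes tested, 18.3% were called higher. These stretches, which leave out Slc2a1 and Bpgm, were not set in advance, and the difference between them was not tested. After removal of each sample's trend with gene length and GC content, Gpi1, Pfkl, Pfkp and Pfkfb3 were called as well (limma adjusted p = 0.0124 to 0.0490). Bpgm, a side branch to 2,3-bisphosphoglycerate, and the lactate transporter gene Slc16a1 had log2 changes of 0.11 and -0.01 (limma adjusted p = 0.567 and 0.978). Slc2a1 and Pgam1 were no longer called without Ngfr KO replicate 2 (limma adjusted p = 0.0581 and 0.0627).

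**Figure D3:**
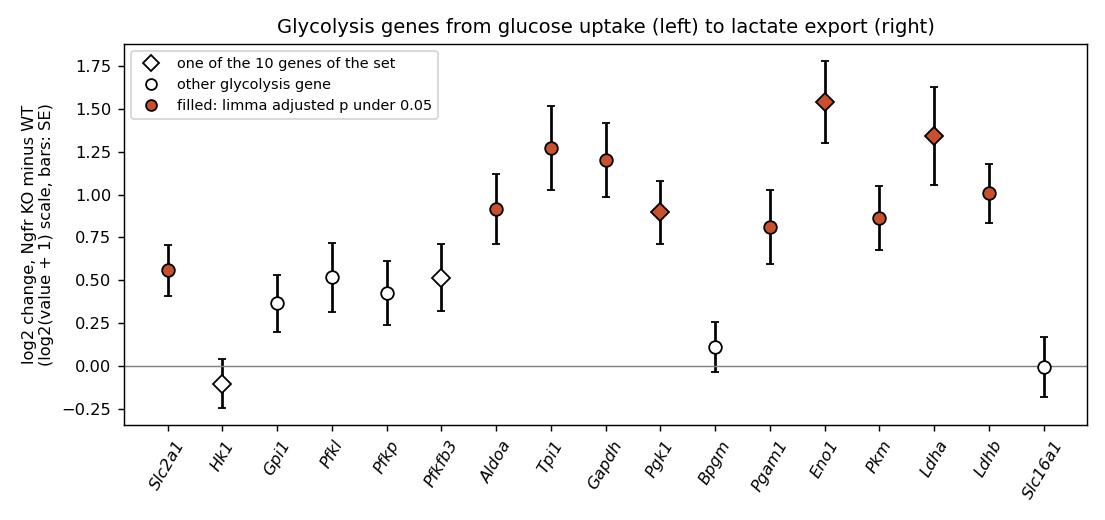
Log2 change (Ngfr KO minus WT, log2(signal + 1) scale, bars SE) of the 17 tested glycolysis genes, ordered from glucose uptake to lactate export; diamonds are genes of the set, circles other genes, and filled symbols have a limma adjusted p under 0.05. The 10 filled symbols are Slc2a1 and the genes from Aldoa to Ldhb without Bpgm.

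Bnip3 (chromosome 7, 138890836 to 138909519, minus strand) encodes a mitochondrial receptor for mitophagy and is a classical hypoxia target. Signals were 2.84, 3.53, 3.72 and 2.02 in WT and 3.95, 6.01 and 4.44 in Ngfr KO. Between groups there was no overlap, though WT replicate 3 and Ngfr KO replicate 1 were close. The limma log2 change of 0.53 (SE 0.19, adjusted p = 0.0495) was at the edge of the threshold, and the call was lost in 15 of 18 alternatives, edgeR among them (adjusted p = 0.0749). Leaving out any replicate but WT replicate 3 ended it (limma adjusted p = 0.0584 to 0.201).

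Other transcripts known to respond to hypoxia, outside glycolysis, were counted from a list of 26 genes. Of these 16 were tested, 5 were called higher and 2 lower, beside 18.3% and 15.8% of all genes tested. The median log2 change was 0.36. At an unadjusted limma p under 0.05 the counts were 7 and 2, the share of all genes at that cut not being counted. Without Ngfr KO replicate 2, 3 were called higher, and without Ngfr KO replicate 1 or 3, 1 was called lower. The collagen prolyl hydroxylase genes P4ha1 and P4ha2 rose 2.03-fold and 3.504-fold (limma log2 changes 0.74 and 1.10, adjusted p = 0.00777 and 0.00224). Adm, the vasodilator peptide adrenomedullin, rose from 4.90 ± 1.82 (SD, n = 4) to 9.60 ± 2.76 (SD, n = 3) (limma adjusted p = 0.0154). Without Ngfr KO replicate 2 its log2 change was 0.66 in place of 0.86 and was not called (limma adjusted p = 0.0773). Tfrc, the transferrin receptor gene and also called higher, passed the filter through Ngfr KO alone and lost its call without WT replicate 1 or 2 (limma adjusted p = 0.0773 and 0.0575). The lysyl hydroxylase gene Plod1 fell by 0.71 on the log2 scale and Stc2 by 0.58 (limma adjusted p = 0.00870 and 0.0169), the latter no longer called without Ngfr KO replicate 1 or 3 (limma adjusted p = 0.0697 and 0.0501). Bnip3l, the nearest relative of Bnip3, had signals of 24.9 to 30.7 in WT against 33.0 to 35.2 in Ngfr KO and was not called (log2 change 0.33, limma adjusted p = 0.147).

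Vegfa (chromosome 17, 46016993 to 46032369, minus strand) went the other way from the glycolytic enzymes. Signals were 7.76, 6.48, 6.73 and 7.29 in WT and 3.12, 4.38 and 4.50 in Ngfr KO, with a wide gap between the groups. It fell 1.77-fold, from 7.06 ± 0.58 (SD, n = 4) to 4.00 ± 0.77 (SD, n = 3), a limma log2 change of -0.70 (SE 0.16, adjusted p = 0.00712). It kept its direction and its call in all 18 alternatives that tested it.

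Other VEGF ligands and receptors were counted from a list. Of its 10 genes, limma tested 5 and edgeR 8, and each called 0 higher and 4 lower. Over all genes tested, limma called 18.3% higher and 15.8% lower, and edgeR 8.67% and 6.55%. At an unadjusted limma p under 0.05, 1 was higher and 4 lower, the share of all genes at that cut not being counted. Below the limma filter, Flt1 overlapped, while the ligand genes Vegfc and Pgf were higher in each Ngfr KO sample. Their signals were 0.0261 to 0.420 and 0.0478 to 0.187 in WT against 0.682 to 0.969 and 0.188 to 0.319 in Ngfr KO. Neither was called by edgeR (adjusted p = 0.118 and 0.233). Kdr, the main VEGF receptor of blood endothelium, fell 3.85-fold, from 33.0 ± 9.99 (SD, n = 4) to 8.57 ± 3.22 (SD, n = 3) (log2 change -1.84, limma adjusted p = 0.000963). Flt4, the receptor of lymphatic endothelium, fell 2.84-fold and the co-receptor gene Nrp2 3.03-fold (limma adjusted p = 0.00166 and 0.00137). The ligand gene Vegfb fell 2.34-fold (limma adjusted p = 0.00852) and passed the filter through WT alone. Nrp1, which passed through Ngfr KO alone, was not called, with signals of 0.478 to 0.996 in WT against 1.05 to 1.89 in Ngfr KO (limma adjusted p = 0.0783).

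These falls stand beside those of the endothelial markers, whose summed signal was 2.99-fold lower in Ngfr KO. Epas1 and Vegfa fell less than that sum, by 1.83-fold and 1.77-fold. Within Ngfr KO, replicate 3 had the lowest endothelial sum (32.4) but the highest Epas1 (7.48) and Vegfa (4.50) signals. Summed signals of reticular stroma markers (91.3 to 224 in WT against 251 to 359 in Ngfr KO) and of myeloid markers (3.54 to 10.8 and 11.01 to 50.03) also did not overlap, while those of B-cell and T-cell markers did. Of 8 reticular markers tested, 3 were called higher and 1, Thy1, lower (limma adjusted p = 0.00101). Of 4 myeloid markers tested, 2 were called higher and 0 lower, beside 18.3% and 15.8% of all genes tested. Dcn and Ccl19 made up most of the mean reticular sum: 48.0 and 33.5 of 128 in WT, 198 and 77.5 of 311 in Ngfr KO. The part of other cell types in the changes of Epas1, Vegfa and the glycolytic genes was not tested.

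**Figure D4:**
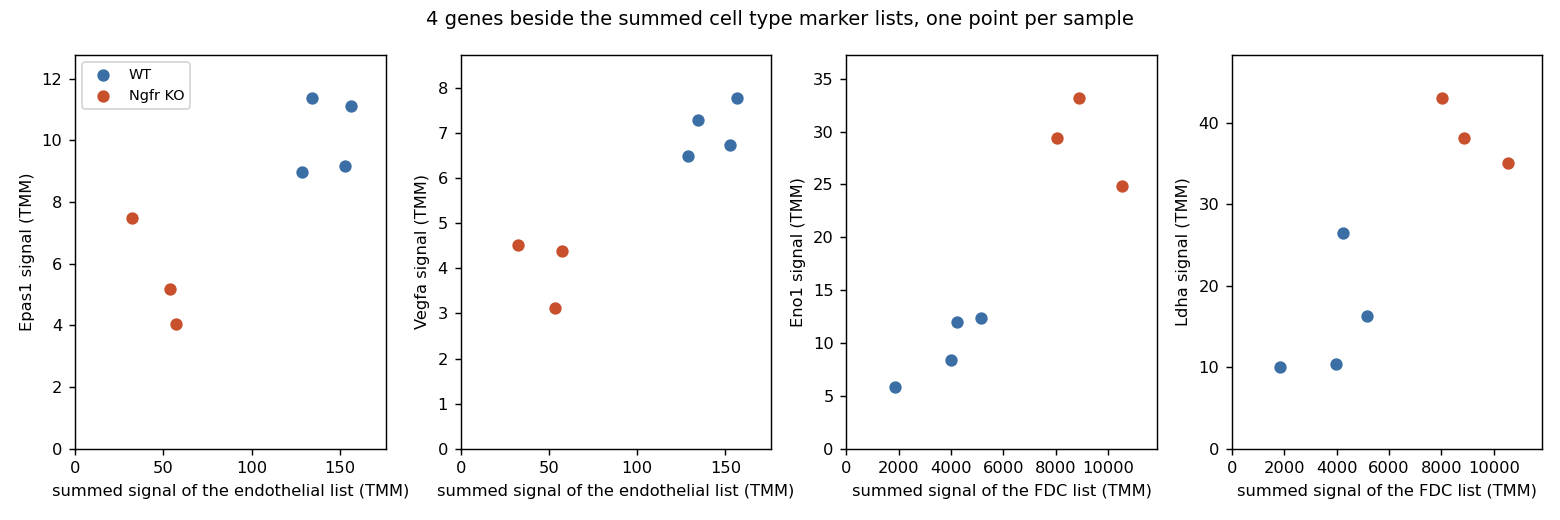
Signal (TMM units) of Epas1 and Vegfa against the summed signal of the 14 endothelial markers, and of Eno1 and Ldha against that of the 14 FDC markers, 1 point per sample (blue WT, orange Ngfr KO). The genotypes are apart on both axes, and within Ngfr KO the sample with the lowest endothelial sum has the highest Epas1 and Vegfa.

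The fate of pyruvate was followed in 13 genes of the pyruvate dehydrogenase complex, its kinases and phosphatases and the mitochondrial carrier. Limma tested 9 and called 4 higher and 0 lower, and edgeR tested 13 and called 4 higher and 1 lower. Over all genes tested, these shares were 18.3% and 15.8% by limma and 8.67% and 6.55% by edgeR. At an unadjusted p under 0.05, 4 of the 9 were higher and 1 lower by limma, the share of all genes at that cut not being counted. Without Ngfr KO replicate 1 or 2, and with the length and GC trend removed, 2 were called higher. Dld, the shared dehydrogenase subunit, rose 1.93-fold (log2 change 0.83, limma adjusted p = 0.00210) and Pdhx, a structural subunit, 2.05-fold (log2 change 0.71, limma adjusted p = 0.00424). Pdhb rose 1.45-fold (limma adjusted p = 0.0343), a call lost when any of 5 single replicates was left out (limma adjusted p = 0.0524 to 0.113). The kinase gene Pdk3 passed the filter through Ngfr KO alone and rose 2.35-fold (log2 change 0.65, limma adjusted p = 0.00586). With the length and GC trend removed it was at 0.37 and not called (limma adjusted p = 0.0676). Pdk1, the kinase best known as a HIF-1 target, passed through WT alone and had a log2 change of -0.38 (limma adjusted p = 0.0510). The lower call of edgeR was Pdk4 (log2 change -2.12, adjusted p = 0.0310), which did not reach a signal of 1 in any sample.

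Compared per kilobase of merged exon, Ldha was the most abundant gene of the set in both genotypes, at 4.78 ± 2.32 (SD, n = 4) in WT against 11.7 ± 1.2 (SD, n = 3) in Ngfr KO. It ranked at percentile 90.1 and 94.95 of genes tested. Pgk1 was next in WT (2.29 ± 0.59), followed by Epas1 (1.82 ± 0.23), Eno1 (1.79 ± 0.58), Hif1a (1.71 ± 0.45), Vegfa (1.65 ± 0.13) and Bnip3 (1.34 ± 0.34). Neighbours in this order overlapped within 1 SD. The order also depends on the length used, since merged exons pool all annotated transcripts of a gene. They came to 5379 bases for Eno1, 3310 for Ldha and 2244 for Pgk1, and a shorter Eno1 transcript would place that gene higher. Pfkfb3 (0.769 ± 0.212) stood lower, above the hexokinases. In Ngfr KO, Eno1 (5.41 ± 0.77) and Pgk1 (4.56 ± 0.25) stood next to Ldha and above the 2.12 ± 0.48 of Bnip3. Hif1a (1.52 ± 0.27) and Pfkfb3 (1.14 ± 0.20) followed, then Epas1 (0.995 ± 0.314) and Vegfa (0.933 ± 0.179), which lay within each other's SD. Eno1 moved from percentile 78.2 to 89.4 and Vegfa from 76.9 to 61.0, while Hk1 stood at 19.6 and 20.5.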

How the data were processed

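RNA of sorted FDCs was amplified with SMART-Seq v4 and made into Nextera XT libraries, per the labels' protocols. Per gene and sample, the authors deposited a normalised signal, in 1 table named TMM; build mm10 and bcl2fastq 2.20.0.422 are given by the submitters' processing notes, and the aligner, counter and annotation are not given in the sources used here. All signal values were whole multiples of 1 step per sample (100%, within 0.01 of a whole read), so no gene length was divided out and reads could be recovered. Intervals were not computed, and amplified reads are not independent molecules.

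Genotype and replicate came from sample titles. Samples are pools, and p-values measure the spread between pools. limma 3.58.1 (R 4.3.3; eBayes with trend, two-sided) was run on log2(signal + 1) for genes with a signal of at least 1 in at least 3 samples. A fold is a ratio of group means of the signal. The pseudocount, worth 230 to 295 reads, understates log2 changes of low genes. edgeR 4.0.16 (quasi-likelihood, filterByExpr) and DESeq2 1.42.0 were run on recovered reads and called 2551 and 3710 of 16751 genes, against 2844 of 8326 by limma. The fits were tested on simulated data. Coordinates, exon lengths and near-identical transcripts (BLAST 2.17.0) came from GENCODE M21 (GRCm38, the build of mm10), with 21137 identifiers matched and 39 not. Merged exons were used for lengths; promoters came from RefSeq. The genes of the set, the lists and the tests were chosen with earlier results of these data known. Genes named are the 10 of the set, Ngfr, up to 4 called list genes per direction, copies and markers; any other gene was picked with its values in view. Values of 1 called gene of the hypoxia list are not reported here. Alternatives were pseudocounts of 0.1 and 5, no filter, a signal of at least 10, quantile and median ratio scaling, array weights, a replicate block, edgeR, DESeq2, thinned reads, each replicate left out and, chosen after seeing the data, removal of the trend with length and GC content.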

Additional observations from a re-analysis of the deposited data

Results flagged for a closer look

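Among 25 results examined in the 4 WT samples, 2 had 1 sample far from the others by Dixon's criterion, where chance flags about 1 in 20, or 1.25 here. For Pfkfb3 the gap between WT replicate 3 (8.21) and the nearest WT sample (5.08) took 0.961 of the group's range. For the summed reticular stroma markers, WT replicate 4 (224) stood apart from the next sample (104) by 0.907 of the range; the chemokine gene Ccl21a, chosen after its values were seen, was at 73.5 in that sample and at 6.81 to 16.9 in the other WT samples.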

How the results depend on the processing

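Eno1, Ldha, Pgk1 and Vegfa kept direction and call in every alternative that tested them (19, 19, 18 and 18 alternatives), with limma, edgeR or DESeq2 log2 changes of 1.24 to 1.68, 1.14 to 1.74, 0.60 to 1.06 and -0.85 to -0.43. Epas1 lost its call in 1 of 18 (-0.99 to -0.53). Bnip3 kept it in 3 of 18 (0.26 to 0.74; adjusted p = 0.0356 to 0.286), Pfkfb3 gained one in 3 of 18 and Hk1 in 1 of 18 (array weights, -0.26, limma adjusted p = 0.0471; its sign turned, to 0.03, with the length and GC trend removed), and Hif1a and Hk2 in 0. A signal of at least 10 left Eno1 and Ldha as the only genes of the set tested, so that 2 were called higher and 0 lower, and 535 genes were called in all; the cause lies in the fewer genes tested. Array weights called 4881 genes and 11 of the other glycolysis genes in place of 7; the cause was not tested. Leaving out 1 replicate each gave 1614 to 3006 called genes, with 1 to 2 genes of the set called lower (1 without Ngfr KO replicate 2, Epas1 being lost). The totals were 1870 without WT replicate 1, 1803 without Ngfr KO replicate 1 and 1614 without Ngfr KO replicate 2. Deviations of equal replicate numbers correlated between genotypes at 0.298, -0.0593 and -0.0108 for replicates 1 to 3. Unequal numbers were not compared, so these values cannot tell whether the numbers pair the samples. The fit with the replicate block called 2717 genes, 2422 of them also called without it. No ratio could reach significance with a replicate left out. Across genes, the log2 change ran against exon length (Spearman's rho -0.256) and little with GC content (0.0665); with that trend removed Pgk1 had a log2 change of 0.64 and Bnip3 0.26. Depth limits Hk2 (54 to 286 reads) most. No scaling moved the median of all genes by over 0.1.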

Other observations

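P4ha1 (signals of 2.05 to 2.38 in WT against 3.28 to 5.92 in Ngfr KO) and Plod1 (2.10 to 3.35 and 0.833 to 1.44), both called and both encoding enzymes that hydroxylate collagen, changed in opposite directions. These genes were picked out after their values were seen, and the difference between them was not tested.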
